A study of Oryza sativa Japonica Group and Oryza sativa Indica Group and Oryza sativa Indica Group x Oryza sativa Japonica Group with 9 samples.

Results

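A set of 240 rice loci had transcripts in shoots of the cultivar MH63 and almost none in shoots of the cultivar C92. These loci were chosen by their measured values: FPKM (fragments scaled to locus length and to the mapped total of the library) had to be at least 1 in all 3 MH63 libraries and at most 0.1 in all 3 C92 libraries. They are 240 of the 55783 loci listed, or 0.430%, and 1.26% of the 19100 loci at FPKM 1 or more in all 3 MH63 libraries. The study measured polyadenylated RNA in shoots of seedlings at 14 days, grown in water at 28 °C with 16 h of light and 8 h of darkness. Its 3 groups of 3 libraries are the inbred cultivars C92 (japonica) and MH63 (indica) and their F1 hybrid, which the labels write as C92×MH63 and as MH63 x C92, so the direction of the cross is not clear. No treatment, transgene or mutant allele is named, and the labels do not say how many plants stand behind a library. The series' design text calls the replicates biological without saying how they were grown apart, and each p-value reflects only how far these libraries spread.

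An F1 plant of inbred parents inherits 1 chromosome set from each, so a locus with transcripts in a single parent is present in F1 with 1 copy from that parent. If that copy worked in the hybrid as it does in its own parent and the other stayed silent, F1 would hold 0.5 of the parental level. FPKM of a locus does not separate the copies, so it does not show which of them gave the RNA in F1. Geneticists separate cis effects, which belong to the copy itself (a missing gene, a changed promoter), from trans effects, which come from diffusible products such as transcription factors or small RNAs and act on both copies in the hybrid. Differences in gene content between indica and japonica rice are a known source of expression in a single parent. The locus IDs carry no gene names here, so the loci below are described by ID, position and level and not by function, and the shoot label could not be set against marker genes.

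The libraries were alike in scale: FPKM sums lay between 602005 and 623806, and between 30440 and 33329 loci were above 0. The number of reads is unknown, so no counting interval can be given. One library group needs naming before the results: for the loci described here, F1 libraries 1 and 2 lay lower than F1 library 3, and the counts and medians for F1 are therefore also given for library 3 alone or by library. Fewer cells with a transcript and less of it per cell cannot be told apart in such bulk RNA. No source used here states the reads' strand or the handling of reads that match several places, so a locus with a near-identical copy or an overlapping neighbour is uncertain.

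Most of the 240 loci were expressed at a low level in MH63. Their MH63 means ran from 1.14 to 70.3 FPKM with a median of 3.70, against a median of 11.2 FPKM for all 19100 loci expressed in MH63. A mean under 2 FPKM was found at 61 loci and a mean of at least 10 FPKM at 52. Together they made up 0.356%, 0.343% and 0.326% of the FPKM sum in MH63 libraries 1, 2 and 3, and 0.126%, 0.108% and 0.158% in F1 libraries 1, 2 and 3. The coefficient of variation over the MH63 libraries had a median of 0.156, against 0.106 for all loci expressed in MH63, and it was above 0.5 at 14 loci. All C92 libraries were at 0 for 148 of the 240 loci (61.7%), and the other 92 had a value of up to 0.1 in at least 1 library. All of these values except those of F1 entered the choice of loci, so they describe the set and carry no test.

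The strongest transcript of the set came from LOC_Os08g08655, at 77.6, 65.5 and 67.7 FPKM in MH63 libraries 1, 2 and 3, and at 16.9, 16.5 and 29.9 FPKM in F1. C92 listed it at 0, 0.07 and 0. LOC_Os03g45220 stood at 71.3, 67.1 and 61.5 FPKM in MH63, at 29.9, 25.3 and 32.5 FPKM in F1, and at 0 in all C92 libraries. In both loci all F1 libraries lay below all MH63 libraries and above all C92 libraries, but the F1 share of the MH63 mean differed, at 0.3 for the first and 0.438 for the second. LOC_Os12g39250 had 68.0, 54.1 and 40.8 FPKM in MH63 and 21.7, 24.9 and 26.8 FPKM in F1. LOC_Os03g39700 had 48.3, 43.4 and 60.9 FPKM in MH63 and 17.4, 8.21 and 16.1 FPKM in F1, with library 2 far below the other two. LOC_Os10g24000 had 55.2, 43.7 and 47.3 FPKM in MH63 and 18.3, 13.5 and 25.5 FPKM in F1. All C92 libraries list these 3 loci at 0.

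LOC_Os03g22720, also listed at 0 in C92, stood at 52.9, 49.4 and 40.4 FPKM in MH63 and at 25.1, 21.5 and 28.4 FPKM in F1, a share of 0.526 and the highest among the 10 strongest loci. LOC_Os08g35305 had 47.3, 47.8 and 39.7 FPKM in MH63 and 16.7, 13.6 and 15.3 FPKM in F1. LOC_Os08g42210, the steadiest in MH63 among the 10 strongest loci, had 44.0, 45.8 and 44.4 FPKM in MH63 and 19.2, 12.8 and 20.5 FPKM in F1. LOC_Os11g47370 had 43.5, 41.9 and 39.0 FPKM in MH63 and 17.4, 13.2 and 25.4 FPKM in F1. The 10th locus of this list, LOC_Os08g32750, was nearly silent in F1 and is described with its like below. In each of these 10 loci the 3 F1 libraries lay between the parents without overlap.

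**Figure D1:**
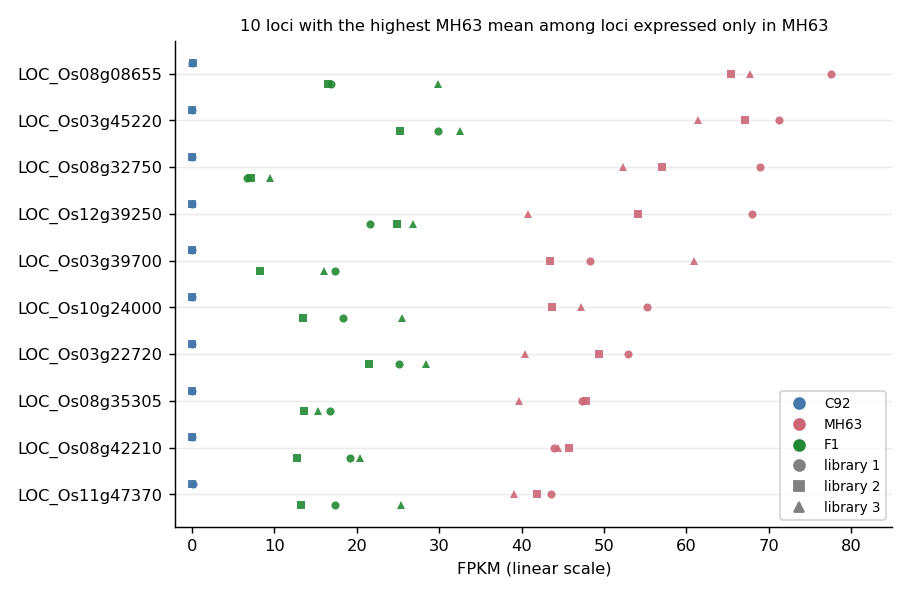
FPKM on a linear axis in all 9 libraries for the 10 loci with the highest MH63 mean; colour marks the group and symbol shape the library. C92 points sit at or near 0, MH63 points lie between 39.0 and 77.6 FPKM, and F1 points lie between them, farthest to the left at LOC_Os08g32750 with 6.69 to 9.46 FPKM.

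The limits of the choice cut through a continuous range of values. Just inside the MH63 limit were LOC_Os06g05410 and LOC_Os07g13234, each with a lowest MH63 library of 1.01 FPKM, and just outside it were LOC_Os10g04840 at 0.99 and LOC_Os02g18980 at 0.97. At the C92 limit, LOC_Os12g17400 and LOC_Os01g26210 were inside with a highest C92 library of 0.10 FPKM, while LOC_Os06g05440 and LOC_Os12g42590 were outside at 0.11. LOC_Os06g05440 was strong in MH63, at 56.7, 67.4 and 106.7 FPKM. In all, 57 loci expressed in MH63 had a highest C92 value above 0.1 and up to 0.2, and 9 of the 240 stood exactly at 0.10. When a library was left out of the choice, the loci chosen without it mostly met its limit as well. Of 252, 245 and 264 loci chosen without MH63 library 1, 2 or 3, 240 were at 1 FPKM or more in the library left out, with a lowest value of 0.46. Of 251, 255 and 261 loci chosen without C92 library 1, 2 or 3, 240 were at 0.1 FPKM or less in it, with a highest value of 0.44.

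The loci were found on all 12 chromosomes, in unequal numbers. Chromosome 6 held 29, chromosome 11 held 27, chromosomes 2 and 4 held 26 each and chromosome 12 held 24, while chromosome 7 held 10 and chromosomes 1 and 5 held 11 each. Set against the loci expressed in MH63 on the same chromosome, the share was highest on chromosome 11, at 27 of 946 (2.85%), followed by chromosome 12 at 2.30% and chromosome 6 at 1.87%. It was lowest on chromosome 1, at 11 of 2754 (0.399%). Loci expressed only in C92, chosen by the same limits with the parents exchanged, numbered 515, and their number for each MH63 locus ran from 1.37 on chromosome 11 to 4.73 on chromosome 1. Chromosome 8 stood at 3.95, with 83 C92 loci against 21. The difference between chromosomes was not tested. The gene models behind the list of loci were not given in the sources used here. Whether they cover the genes of both parents equally is unknown, so the larger number for C92 is not read as a property of the parents.

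**Figure D2:**
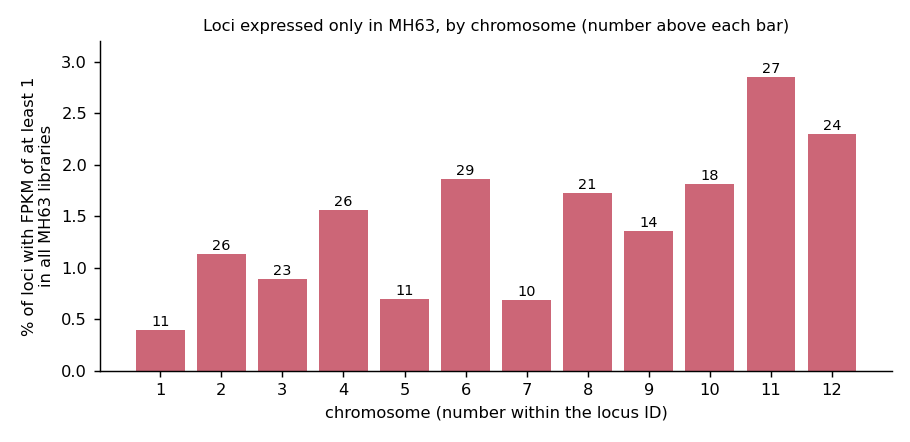
Loci expressed only in MH63 as a percentage of the loci with FPKM of at least 1 in all MH63 libraries, for each chromosome; the number above a bar is the count of loci. The bars run from 0.399% on chromosome 1 to 2.85% on chromosome 11.

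Most of the loci had no other one directly beside them. In ID order, which follows position along a chromosome, 30 of the 240 (12.5%) stood next to another one, in 12 runs of 2 loci and 2 runs of 3 loci on 8 chromosomes. Of the 515 loci expressed only in C92, 93 (18.1%) stood in such runs. No run was longer than 3 loci in either class. Of the 480 places next to the 240 loci, 32 (6.67%) held another of the 240, against 0.353% of the places around all loci expressed in MH63. A further 110 (22.9%) held a locus at 0 in all 9 libraries, 93 (19.4%) a locus at 1 FPKM or more in all parental libraries and 7 (1.46%) a locus expressed only in C92. Around all loci expressed in MH63 the last 3 shares were 12.0%, 51.2% and 0.607%. Loci whose ID does not end in 0 made up 33 of the 240 (13.8%), against 7.91% of all loci expressed in MH63, 20% of the loci expressed only in C92 and 6.33% of all loci listed. These shares were not tested against each other.

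One of the runs of 3 loci lay on chromosome 6. LOC_Os06g05410 had 1.01, 3.41 and 1.16 FPKM in MH63 and 1.08, 2.87 and 3.16 FPKM in F1. LOC_Os06g05420 had 4.6, 15.2 and 3.06 FPKM in MH63 and 5.89, 2.40 and 13.4 FPKM in F1. LOC_Os06g05424 had 5.16, 5.54 and 4.65 FPKM in MH63 and 2.42, 2.12 and 3.09 FPKM in F1. All 3 were listed at 0 in every C92 library, yet their F1 shares differed: in the first and second, F1 and MH63 libraries overlapped, and in the third the F1 share was 0.497 with no overlap. The stretch did not end there. LOC_Os06g05430, LOC_Os06g05440 and LOC_Os06g05450 follow in ID order and fell outside the limits, with MH63 means of 9.09, 76.9 and 13.6 FPKM against C92 means of 1.75, 0.0567 and 0.483 FPKM. LOC_Os06g05400, on the other side, averaged 90.6 FPKM in C92 and 120 FPKM in MH63. These neighbours were looked at after the run had been found.

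The other run of 3 loci, LOC_Os06g38764 to LOC_Os06g38780, also lay on chromosome 6. LOC_Os06g38764 had 4.76, 22.8 and 4.86 FPKM in MH63 and 5.12, 2.75 and 3.34 FPKM in F1, so that 1 MH63 library set its mean. LOC_Os06g38770 had an F1 share of 0.410 at an MH63 mean of 2.80 FPKM, and LOC_Os06g38780 a share of 0.621 at 1.49 FPKM. Among the runs of 2, LOC_Os02g29610 and LOC_Os02g29620 had MH63 means of 15.5 and 37.2 FPKM and F1 shares of 0.512 and 0.388. LOC_Os10g23990 and LOC_Os10g24000 had MH63 means of 1.71 and 48.7 FPKM and F1 shares of 0.394 and 0.392. LOC_Os08g34870 and LOC_Os08g34879 had MH63 means of 2.67 and 36.3 FPKM and F1 shares of 0.302 and 0.439. Over all 14 runs, the MH63 means of neighbours were more than 2-fold apart in 10, and the F1 shares of neighbours lay within 0.1 of each other in 8. Neither count was set against loci that are not neighbours, and the F1 share of all 240 loci had quartiles at 0.335 and 0.484.

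In the hybrid, nearly all of the 240 loci were transcribed, at a level below MH63. All 3 F1 libraries lay below all 3 MH63 libraries at 217 loci (90.4%), and such an order was seen at 15.4% of the 21447 loci tested. All 3 F1 libraries lay above all 3 C92 libraries at 237 loci (98.8%), against 21.5% of the loci tested. The exceptions were LOC_Os12g24870, LOC_Os11g39450 and LOC_Os11g45070, whose F1 libraries reached down to the C92 values. F1 library 3 alone lay below all MH63 libraries at 221 loci and above all C92 libraries at 239. Over all loci tested the order of library 3 alone was not counted, and the shares for all 3 F1 libraries are no match for it. Because the MH63 and C92 libraries chose the loci, high in one and near 0 in the other, a place between the parents is what a modest level of transcription in F1 would give, and these counts are no support for it.

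The F1 mean divided by the MH63 mean, called the F1 share here, had a median of 0.406 over the 240 loci and quartiles at 0.335 and 0.484. Of the 240 loci, 17 (7.08%) were nearly silent in F1 with a share of at most 0.2, 100 lay between 0.2 and 0.4, and 104 (43.3%) were near 0.5 with a share of 0.4 to 0.6. A further 16 lay between 0.6 and 1, and 3 exceeded the MH63 mean. From F1 library 3 alone, 14 were nearly silent and 116 near 0.5. The share did not follow the level closely. When the loci were put in 4 groups of 60 by MH63 mean, the median share was 0.422 in the lowest group (1.14 to 1.94 FPKM), then 0.415 and 0.4003, and 0.382 in the highest (7.70 to 70.3 FPKM), and these groups held 4, 4, 4 and 5 nearly silent loci. In F1 library 3 alone the medians of the groups were 0.480, 0.508, 0.492 and 0.456. For the 515 loci expressed only in C92, the share of the C92 mean had a median of 0.551, with 9 (1.75%) at 0.2 or less and 248 (48.2%) between 0.4 and 0.6. Because both classes are read from the same 3 F1 libraries, the difference between them was not tested.

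**Figure D3:**
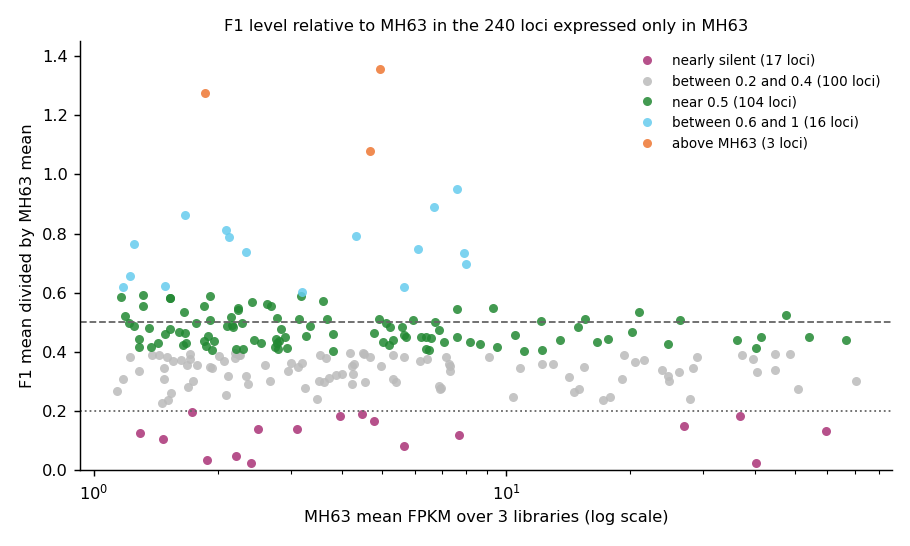
F1 mean divided by MH63 mean (vertical axis) against the MH63 mean in FPKM (horizontal axis, log scale) for the 240 loci, coloured by class; the dashed line marks 0.5 and the dotted line 0.2. Most points lie between 0.2 and 0.6 at every level, and the 17 nearly silent loci are spread from 1.29 to 59.4 FPKM.

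The share differed between the F1 libraries. The medians of libraries 1, 2 and 3 were 0.390, 0.334 and 0.486, each against the mean of the 3 MH63 libraries. Library 3 was the highest of the F1 libraries at 171 of the 240 loci (71.3%) and library 2 the lowest at 154. Over all 19100 loci expressed in MH63, library 3 was the highest at 27.1%. The order was the same along the genome: the median share was highest in library 3 on 12 of 12 chromosomes and lowest in library 2 on 11, chromosome 7 being the exception. In loci expressed only in C92 the order turned round, with median shares of the C92 mean of 0.581, 0.560 and 0.479 in libraries 1, 2 and 3, and library 3 was the lowest at 356 of 515 (69.1%). Within the class near 0.5, whose members were picked on the mean of the 3 libraries, the medians were 0.442, 0.396 and 0.544. With libraries 1 and 2 left out, the median share of the 240 loci was 0.486, and without library 3 it was 0.369. What sets library 3 apart was not tested.

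**Figure D4:**
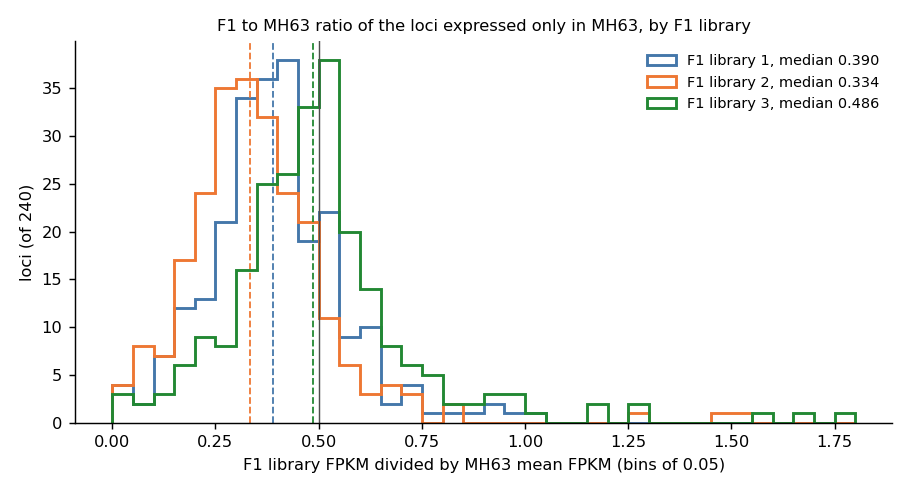
Number of loci (of 240) by the FPKM of 1 F1 library divided by the MH63 mean, in bins of 0.05; dashed lines mark the medians and the solid vertical line marks 0.5. The distribution of library 3 (median 0.486) lies to the right of library 1 (0.390) and library 2 (0.334).

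The loci near 0.5 included some of the strongest of the set. LOC_Os03g45220 and LOC_Os03g22720 (values above) had F1 means of 29.2 ± 3.68 and 25.01 ± 3.48 FPKM (SD, n = 3), shares of 0.438 and 0.526. LOC_Os12g39250 and LOC_Os11g47370 averaged 24.5 ± 2.62 and 18.7 ± 6.18 FPKM in F1, shares of 0.451 and 0.450. LOC_Os10g10750 had 37.5, 38.7 and 44.9 FPKM in MH63 and 17.3, 11.3 and 21.3 FPKM in F1, a share of 0.413. In these 5 loci the groups did not overlap, and F1 library 2 was the lowest F1 library in all except LOC_Os12g39250. The 104 loci of this class were present on 12 chromosomes, had a median MH63 mean of 3.04 FPKM, and 68 (65.4%) were listed at 0 in all C92 libraries. Of the 104, 14 stood in runs of neighbours.

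The 17 nearly silent loci ranged from strong to weak in MH63. LOC_Os08g32750 had 69.0, 57.0 and 52.4 FPKM in MH63 and 6.69, 7.14 and 9.46 FPKM in F1, a share of 0.131. LOC_Os12g43390 had 63.6, 42.2 and 15.3 FPKM in MH63 and 0.48, 0.55 and 1.82 FPKM in F1, the lowest share of all at 0.0235, although its MH63 libraries differed 4.16-fold. LOC_Os02g17610 had 37.4, 40.5 and 32.9 FPKM in MH63 and 8.06, 6.40 and 5.65 FPKM in F1. Unlike most of the 240, it was lowest in F1 library 3. LOC_Os01g41800 had 27.4, 24.5 and 29.1 FPKM in MH63 and 4.02, 3.76 and 4.22 FPKM in F1, a share of 0.148 with the 3 F1 libraries close together.

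At lower levels, LOC_Os06g21410 had 5.25, 12.8 and 5.10 FPKM in MH63 and 0.89, 0.73 and 1.16 FPKM in F1. LOC_Os09g18230 had 6.78, 5.06 and 5.11 FPKM in MH63 and 0.10, 0.69 and 0.60 FPKM in F1. LOC_Os10g18480 had 1.67, 2.66 and 10.03 FPKM in MH63 and 0.81, 0.05 and 1.51 FPKM in F1. Its share of 0.165 rests on MH63 library 3. LOC_Os12g26470 had 4.15, 4.93 and 4.31 FPKM in MH63 and 0.82, 0.60 and 1.1 FPKM in F1, with C92 values of 0.04, 0.08 and 0. LOC_Os08g24740 had 3.76, 3.29 and 4.82 FPKM in MH63 and 0.99, 0.35 and 0.85 FPKM in F1, and LOC_Os11g32400 had 3.65, 3.2 and 2.47 FPKM in MH63 and 0.33, 0.27 and 0.70 FPKM in F1. In all 17 loci every F1 library lay below every MH63 library. The choice of loci with an F1 share of at most 0.2 nearly fixed this order. It was also seen at 90.4% of all loci expressed only in MH63, so it does not set the 17 apart.

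F1 means of at most 0.1 FPKM, the limit used for C92, were found at 2 loci. LOC_Os12g24870 had 2.13, 1.90 and 3.17 FPKM in MH63 against 0.04, 0.03 and 0.11 FPKM in F1 and 0, 0.04 and 0 in C92. LOC_Os11g45070 had 2.03, 1.25 and 2.35 FPKM in MH63 against 0.19, 0 and 0 in F1 and 0 in all C92 libraries. In both, at least 1 F1 library was no higher than a C92 library. The share of the remaining 5 nearly silent loci (LOC_Os08g42290, LOC_Os11g39450, LOC_Os12g43860, LOC_Os09g18260 and LOC_Os04g30260) ran from 0.0468 to 0.195, at MH63 means from 1.29 to 2.50 FPKM.

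**Figure D5:**
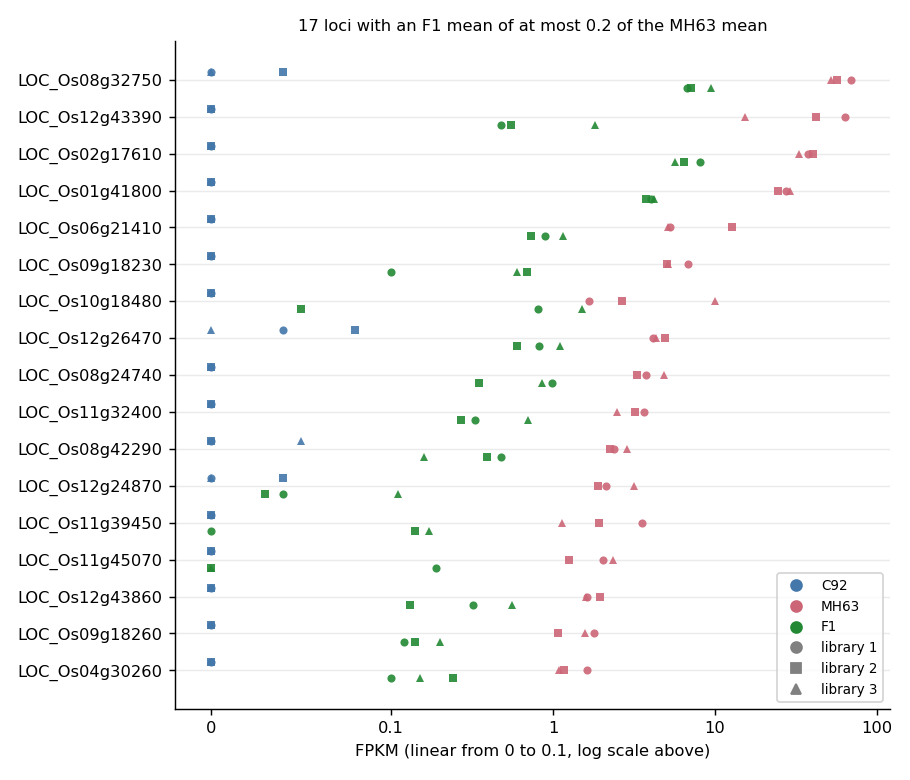
FPKM in all 9 libraries for the 17 loci with an F1 mean of at most 0.2 of the MH63 mean, in order of MH63 mean; the axis is linear from 0 to 0.1 and logarithmic above. The F1 points of each locus lie to the left of its MH63 points, and for LOC_Os12g24870, LOC_Os11g39450 and LOC_Os11g45070 the lowest of them reach the C92 points near 0.

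At the limit of 0.2, the highest shares inside were 0.188 for LOC_Os12g26470 and 0.195 for LOC_Os12g43860, and the lowest outside were 0.228 for LOC_Os05g25914 and 0.237 for LOC_Os06g21310. They lay on 9 chromosomes, 4 of them on chromosome 12 and 3 each on chromosomes 8 and 11, and 0 of the 17 stood in a run of direct neighbours. LOC_Os09g18230 and LOC_Os09g18260 were close, with 2 listed loci between them that were at 0 in MH63. The median MH63 mean was 3.96 FPKM against 3.04 FPKM in the class near 0.5, and 13 of the 17 (76.5%) were listed at 0 in all C92 libraries, against 65.4%. Their spread over the MH63 libraries was wider, with a median coefficient of variation of 0.198 against 0.141, and in 4 of the 17 the MH63 libraries differed more than 2-fold. Which part this spread has in the low shares was not tested.

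Since the F1 values picked the nearly silent loci, the share was read again in an F1 and an MH63 library that had no part in the choice. Loci were picked anew, with 2 MH63 libraries for the limit of 1 FPKM and the same MH63 libraries and 2 F1 libraries for the share, and the share was computed from the libraries left out. Without the libraries numbered 1, 25 loci were picked and 13 had a share of at most 0.2 in the libraries left out, with a median of 0.198 and a highest value of 1.59. Without those numbered 2, 15 were picked and 14 were at 0.2 or less, with a median of 0.125 and a highest value of 0.205. Without those numbered 3, 37 were picked and 20 were at 0.2 or less, with a median of 0.181 and a highest value of 2.52. The low share thus recurred for some of the loci picked and not for others. Loci picked as near 0.5 in the same way fell to 0.2 or less in 5 of 110, 4 of 117 and 1 of 79 cases. Against the MH63 mean, 11 of the 240 loci had a share of at most 0.2 in all 3 F1 libraries, 10 in exactly 2 and 22 in exactly 1, and 197 in none.

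F1 exceeded the MH63 mean at 3 loci, all listed at 0 in every C92 library. LOC_Os08g09290 had 5.89, 4.54 and 4.40 FPKM in MH63 and 5.08, 7.21 and 7.83 FPKM in F1, a share of 1.36. LOC_Os11g44380 had 4.24, 3.21 and 6.55 FPKM in MH63 and 4.37, 6.04 and 4.69 FPKM in F1, a share of 1.08. The other was LOC_Os06g05410, described with its run. In all 3 the F1 and MH63 libraries overlapped, so F1 was not separated from MH63.

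F1 was tested against the mid-parent, the arithmetic mean of the parental levels, to find loci that left the level expected of 1 unchanged copy. The test was limma on log2(FPKM + 1) over all 21447 loci at FPKM 1 or more in at least 3 libraries, with p-values adjusted by the Benjamini-Hochberg method over all of them and a call at an adjusted p below 0.05. All 240 loci entered the test through their MH63 values, which also chose them, so the counts are descriptions. Of the 240, 32 were lower than the mid-parent in F1 (13.3%), where 5.58% of all loci tested were called lower, and 2 were higher (0.833%), against 3.36% of all loci. Over the 240 loci the median log2 fold change was -0.19, against 0.01 over all loci tested, and 191 of the 240 lay below 0. Of the loci called lower, 16 of 32 were nearly silent loci, picked for that ratio, and the other 16 had shares between 0.2 and 0.4. At an unadjusted p below 0.05, 82 passed in either direction. The number over all loci tested was not counted at that threshold, so the 82 cannot be set against it. The direction depends on the mean taken. Against a mid-parent averaged on the log scale, which lies far lower for these loci, 70 were higher and 8 lower. Over all 21447 loci tested, 1496 were higher and 1103 lower against it. LOC_Os08g08655 and LOC_Os08g35305 turned to 1.32 and 1.24.

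Of the 34 loci called, 7 were called in each of the 9 fits that left out 1 library, and 5 of these 7 were nearly silent. The nearly silent loci were picked for a low share in these same libraries, most of which each fit reuses. Calls in every fit therefore describe these loci and are no independent support. Only 22 of the 34 could be tested in all 9 fits, since the other 12 missed the filter whenever an MH63 library was left out. Of these 12, 5 were called in each of the 6 fits that tested them, all nearly silent: LOC_Os08g42290, LOC_Os09g18230, LOC_Os11g32400, LOC_Os11g45070 and LOC_Os12g24870. Those 6 fits kept every MH63 library, and these libraries also chose the loci. Without F1 library 3, 22 loci were lower and 1 higher, where 303 of all 21330 loci tested were lower and 185 higher. With F1 library 3 as the only F1 library, the median log2 fold change of the 240 loci was -0.025, against -0.0084 over all loci tested. That fit takes its spread from the parents alone and assumes that the lone library varies like them, so its calls are not counted. The 5 nearly silent loci called in each of the 9 fits were LOC_Os01g41800, LOC_Os02g17610, LOC_Os08g32750, LOC_Os12g26470 and LOC_Os12g43390. Of the other 2, LOC_Os08g09290 was higher than the mid-parent, by 1.14 in log2 (SE 0.15, adjusted p = 0.0052 in limma), and its adjusted p ran from 0.000106 to 0.0233 over 18 alternatives. LOC_Os11g14570, singled out after its values had been seen, had 11.1, 10.01 and 10.1 FPKM in MH63 and 2.86, 2.06 and 2.82 FPKM in F1, and differed from the mid-parent by -0.80 in log2 (SE 0.11, adjusted p = 0.007 in limma).

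LOC_Os11g44380 was also higher, by 0.88 in log2 (SE 0.19, adjusted p = 0.023 in limma), but 5 of its 18 alternatives lost the call, with adjusted p from 0.00149 to 0.148. Of the 10 loci with the highest MH63 mean, 9 had a share above 0.2. LOC_Os08g35305 differed from the mid-parent by -0.53 in log2 (SE 0.11, adjusted p = 0.0196 in limma), a call lost in 6 of 19 alternatives. With the log-scale mid-parent, another alternative, the difference turned to 1.24. Without that fit and the one with F1 library 3 alone, adjusted p in limma ran from 0.0143 to 0.0891. LOC_Os08g08655 differed by -0.76 (SE 0.20, adjusted p = 0.044 in limma), and 12 of its 19 alternatives lost the call. With the log-scale mid-parent its difference turned to 1.32, and with F1 library 3 alone it was -0.22. Without these fits, adjusted p in limma ran from 0.00904 to 0.114. For the remaining 7, the test found no difference from the mid-parent at the threshold, with log2 fold changes from -0.88 at LOC_Os03g39700 (SE 0.24, adjusted p = 0.0502 in limma) to 0.07 at LOC_Os03g22720 (SE 0.13, adjusted p = 0.765 in limma).

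Against MH63 itself, 209 of the 240 loci (87.1%) were lower in F1 and 0 were higher in the same limma fit, where 7.38% of all loci tested were lower and 11.5% higher. The median log2 fold change was -0.90 in log2(FPKM + 1), where the added 1 shrinks the change of weak loci. At an unadjusted p below 0.05, 1 was higher. The 31 loci not called had a median MH63 mean of 2.15 FPKM. With F1 library 3 as the only F1 library, the median log2 fold change was -0.74, against -0.0046 over all loci tested. This comparison shares the MH63 libraries with the choice of the loci and with the comparison against the mid-parent.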

How the data were processed

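Polyadenylated RNA of 9 shoot libraries (3 each of C92, MH63 and F1) was sequenced. The submitters' processing notes name HISAT2 2.0.5. The build, the gene models and the FPKM program were not given in the sources used here. Per locus and library, the authors deposited FPKM with 2 decimals, and depth is unknown.

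Groups were taken from the sample titles. The loci, their classes and the tests were chosen with earlier results of these data known. Tests used limma 3.58.1 (R 4.3.3): log2(FPKM + 1) of all 9 libraries was fitted by group means with an intensity trend. For the mid-parent, the fitted parental levels were averaged before taking log2, with a delta-method error. Tests were two-sided. The fit was tested on simulated data. Other counts used Python 3.11.15 and pandas 2.3.3. The RefSeq gene table at hand (assembly ASM3414082v1) holds 0 of the 55783 IDs, so no names or sequences are given.

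Loci were named by rule: the 10 highest MH63 means, the 10 highest nearly silent, the 5 highest near 0.5, those with F1 above MH63, the 5 longest runs (ties by summed MH63 mean), the 2 on each side of each limit and those with F1 at most 0.1; others are named as chosen after their values were seen or complete a small group. Alternatives covered limits, pseudocount, filter, scaling, prior, block, mid-parent, neighbour definition and each library left out.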

Additional observations from a re-analysis of the deposited data

How the results depend on the processing

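The number of loci expressed only in MH63 was 154 with an MH63 limit of 2, when 65 were near 0.5 and 10 nearly silent; 34 were nearly silent with a limit of 0.5. Other limits of the share gave 5 nearly silent loci at 0.1, 41 at 0.3, and 186 loci in a window of 0.3 to 0.7. Neighbours counted among tested loci put 49 loci in runs. Members called against the mid-parent numbered 21 with a pseudocount of 0.1 (2 higher, 19 lower) and 18 with no filter (1 higher, 17 lower). At a mean FPKM of at least 5, 50 loci were left, with 11 called lower against the mid-parent and all 50 against MH63. Quantile normalization gave 66 (2 higher, 64 lower) and a log-scale mid-parent 78 (70 higher, 8 lower). Over all 21447 loci tested, 599 were higher and 1066 lower with a pseudocount of 0.1, and 789 and 1736 after quantile normalization. With a log-scale mid-parent, 1496 were higher and 1103 lower. Of 44340 loci tested with no filter, 367 were higher and 545 lower. Of 14199 loci at a mean FPKM of at least 5, 521 were higher and 934 lower against the mid-parent, and 1347 and 942 against MH63. A log-scale mean of a level near 0 and a high one lies far below 0.5 of the high one. Under it LOC_Os08g08655 and LOC_Os08g35305 turned to 1.32 and 1.24. With F1 library 3 as the only F1 library, the members called against the arithmetic mid-parent lay in both directions. The median log2 fold change of all members was then -0.025, against -0.0084 over all loci tested. The main fit gave -0.19 and 0.01, so the lower level of members seen there was mostly absent in library 3 alone. Chosen after seeing the data, leaving out F1 libraries 1 and 2 gave a median share of 0.486, 12 members called against the mid-parent and 118 against MH63 (the lone F1 library is assumed to vary like the parents), and the 97 loci with an MH63 mean of at least 5 FPKM held 18 and 90 calls. With single libraries left out, the number of loci ranged from 245 to 264, the median share from 0.369 to 0.438, nearly silent loci from 13 (without F1 library 2) to 26 (without MH63 library 3), loci near 0.5 from 79 to 121, calls against the mid-parent from 8 (without MH63 library 1) to 24 and calls against MH63 from 142 to 213. Without an MH63 library, 184 of the 240 loci passed the filter. Calls against the mid-parent numbered 18 and 20 without C92 library 2 and 3, 12 and 19 without MH63 library 2 and 3, and 21 and 15 without F1 library 1 and 2. The calls over all loci tested (21180 to 21347 by fit) moved as well. Against the mid-parent they ran from 185 to 629 higher and from 303 to 1166 lower. Against MH63 they ran from 1781 to 2385 higher and from 872 to 1601 lower. The shifts in the members were not separated from these.

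The replicate numbers did not pair the libraries: deviations of same-numbered libraries from their group means correlated from -0.432 to 0.343. A fit with the replicate number as a block (replicate block) called 21 members against the mid-parent and 206 against MH63. Over all 21447 loci tested, it called 470 higher and 846 lower against the mid-parent, and 2144 higher and 1335 lower against MH63. Beyond the direct effect of fewer loci or libraries, the cause of these shifts was not tested. Median-ratio scaling and a prior without trend left each count within 1.5 times.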
